A study of Drosophila melanogaster with 2 samples.

Results

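The weaker reproducible peaks were the places where tagged CG12769 was called in both embryo replicates but below the strength that the stringent peak set required. A peak of the pooled list was a member when it was absent from the set that passed a threshold on the irreproducible discovery rate (IDR) and its interval overlapped by at least 1 bp a peak in each replicate's own list. Of the 30000 pooled peaks, 15401 (51.3%) met this rule. Another 8574 (28.6%) were IDR peaks, and the remaining 6025 (20.1%), called other pooled peaks here, missed at least 1 replicate list. The study had 1 group: whole Drosophila melanogaster embryos of both sexes, pooled, collected at 10 to 24 h, from a transgenic line that stably expressed CG12769 with green fluorescent protein (GFP) at its C-terminus. Chromatin was sonicated to fragments of 200 to 800 bp and precipitated with an antibody against GFP, in biological replicates 5 and 7. No control library, untagged embryos, other ages or separated tissues were analysed here, so a peak cannot be assigned to a cell type.

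As background, a transcription factor or chromatin protein in a fly embryo is usually found at gene promoters, just around the transcription start site (TSS), and at enhancers, many of which lie in the introns of long developmental genes. Peak callers rank such places by signal, and the IDR procedure keeps peaks for as long as the ranks of the replicates match. Places below that point can still recur between replicates, and they are commonly left out of target gene lists. What CG12769 does is not stated in the labels.

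Sequences from the middle of a few members are given first, as examples that do not show how common a marked word is. They are the parts of the 151 bp around the summit that lie outside annotated exons, on the plus strand of dm6. Capitals mark a match to 1 of the 18 consensus sequences searched on both strands. The promoter member shared by CG14683 and pug (chr3R:10696436-10696533) and that of MICAL-like (chr3L:13015333-13015483) held the DNA replication-related element (DRE), TATCGATA, which the factor DREF binds at housekeeping promoters. The SdhD member (chr3R:23760601-23760736) held the E-box CAGCTG, and the member shared by CG46309 and PRL-1 (chr2L:16251851-16252001) held a GAGA repeat, GAGAGAG, and an A tract, AAAAAAAA. The promoter member of tsh (chr2L:21828249-21828399), a developmental gene, held none of the 18. Nor did the promoter members of CG11426, CG13722, CG9297, Gmap, Fkbp59, zfh2, Agpat1 and CG6055, which are not shown. Over all members the DRE was in 0.922% of windows reaching 100 bp to each side of the summit. The strongest member of all (chrX:4264350-4264500), an intergenic one, and a member in an intron of Eip75B (chr3L:18057879-18058029) held matches to the initiator core, TCAGTT, read on either strand. That core was in 13.6% of windows at member summits and 13.5% of windows 600 bp to each side of them.
CG14683 and pug: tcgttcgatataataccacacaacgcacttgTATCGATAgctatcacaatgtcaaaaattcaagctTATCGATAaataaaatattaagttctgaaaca
MICAL-like: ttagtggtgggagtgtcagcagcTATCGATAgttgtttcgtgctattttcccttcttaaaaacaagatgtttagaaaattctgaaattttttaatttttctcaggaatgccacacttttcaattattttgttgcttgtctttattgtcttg
SdhD: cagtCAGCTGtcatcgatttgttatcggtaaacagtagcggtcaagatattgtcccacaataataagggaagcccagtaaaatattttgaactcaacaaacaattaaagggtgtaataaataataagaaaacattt
CG46309 and PRL-1: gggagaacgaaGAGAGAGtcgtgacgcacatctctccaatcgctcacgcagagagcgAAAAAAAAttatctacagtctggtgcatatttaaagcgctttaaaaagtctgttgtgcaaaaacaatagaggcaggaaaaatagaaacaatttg
tsh: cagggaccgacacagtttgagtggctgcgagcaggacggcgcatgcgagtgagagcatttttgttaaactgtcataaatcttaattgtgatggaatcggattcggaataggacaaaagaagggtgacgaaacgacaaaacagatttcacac
intergenic, near CG12691: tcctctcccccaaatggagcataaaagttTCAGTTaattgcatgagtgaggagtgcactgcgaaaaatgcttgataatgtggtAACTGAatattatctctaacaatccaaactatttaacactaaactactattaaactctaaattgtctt
Eip75B intron: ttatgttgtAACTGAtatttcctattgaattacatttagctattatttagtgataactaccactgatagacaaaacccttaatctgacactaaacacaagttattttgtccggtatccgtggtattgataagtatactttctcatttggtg

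The members' strength followed from the rule and is given as description only. The authors' signal value, the caller's own on an unstated scale, ran from 40.8 to 169.7 over the members with a median of 86.8, and from 169.7 to 16058.3 over the IDR peaks with a median of 288.9. No value was shared between the sets: the IDR peaks were the 8574 first-ranked pooled peaks, and members began at rank 8575. Strength and IDR membership therefore cannot be told apart in any comparison with IDR peaks. Members were almost all of 1 width, 390 bp in 97.5% of them against 46.7% of IDR peaks, and together covered 5.63 Mb against 2.65 Mb. Just outside the threshold stood an intergenic peak on X (4264230 to 4264619, value 169.66), which is the one near CG12691 above. Next came peaks in introns of mbl (169.62), CG33144 (169.61) and Eip75B (169.61), and an intergenic peak near Hacd1 (169.59). The IDR peaks just inside it had values of 169.73, 169.72, 169.69, 169.67 and 169.67 and lay in introns of CG9663, l(1)G0469, Nlg3, CG3777 and Prosap. All 5 of these IDR peaks and 3 of the 5 members lay in introns. The Hacd1 member spanned 12002919 to 12005273 on 2L and overlapped peaks ranked as high as 212 in replicate 5 and 164 in replicate 7. For the CG9663 IDR peak these ranks were 6 and 9. A low pooled value thus did not always mark a weak region. Pooled peaks with different summits can also share 1 interval, as IDR peaks at 8060462 to 8061884 on 2R did.

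Of the 21426 pooled peaks outside the IDR set, 71.9% overlapped a peak in both replicates. A further 2199 overlapped a peak of replicate 5 only, 3292 a peak of replicate 7 only, and 534 neither. Each replicate list held 30000 peaks, so overlap also depended on where those lists ended. Each pooled peak took the best rank of any replicate peak that it overlapped, so neighbouring pooled peaks can carry the same ranks. These ranks had a median of 15308 in replicate 5 and 14987 in replicate 7 for members, against 4242.5 and 4098.5 for IDR peaks. Across peaks, the ranks of the replicates had a Spearman rho of 0.52 for the 15401 members and 0.67 for the 8356 IDR peaks in both lists. These coefficients describe peaks of the same libraries over different ranges of rank. Within the first 8574 ranks of both replicate lists were 7.90% of the members, and a further 14.7% were that high in 1 replicate only, 1187 in replicate 5 and 1070 in replicate 7. Some of these ranks were shared with an IDR peak. In the body of CG12769, a member at pooled rank 10083 and the IDR peak that it overlapped both had ranks 4019 and 9973. How many of the high ranks were shared in this way was not counted. The rule bears on the distance between summits too, since a member's interval had to meet a peak of each replicate, as 8356 of the 8574 IDR peaks also did, so these distances are given without a test. Both replicate summits lay within 100 bp of the pooled summit for 65.5% of members (95% exact interval 64.8 to 66.3) and 92.0% of all 8574 IDR peaks (91.4 to 92.6).

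The weaker reproducible peaks lay mostly in introns, and less often at promoters than IDR peaks did. Each summit was given the first category that applied of promoter (within 500 bp of a TSS), 5' UTR, coding sequence, 3' UTR, noncoding exon, intron and intergenic. Introns held 53.9% of member summits (53.1 to 54.6) against 42.8% of IDR summits, a difference of 11.1 points (Fisher's exact test, adjusted exact p = 3.99e-60). Promoters held 22.2% (21.5 to 22.8) against 40.2%, a difference of -18.0 points with odds ratio 0.423 (Fisher's exact test, adjusted exact p = 2.08e-187). Intergenic sequence held 18.5% against 13.2% (adjusted exact p = 1.52e-26). The promoter share of members was still above the 13.6% of bases that lie within 500 bp of a TSS, and the intron share was above the 39.5% of bases in introns.

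Exonic sequence away from promoters held few peaks of either set. Coding sequence, 13.7% of bases, held 1.44% of member summits against 0.921% of IDR summits (Fisher's exact test, adjusted exact p = 0.000679). For 3' UTRs the shares were 1.71% and 1.05% (adjusted exact p = 7.25e-05), and for 5' UTRs 1.19% and 0.805% (adjusted exact p = 0.00759). Noncoding exons, at 1.10% and 1.06%, gave no difference past the threshold (adjusted exact p = 0.903). Among the stronger 7701 members alone the coding sequence difference was 0.234 points and did not pass. Peaks, not animals, are the units of these tests, so each p-value describes these peak sets and not the spread between embryos.

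**Figure D1:**
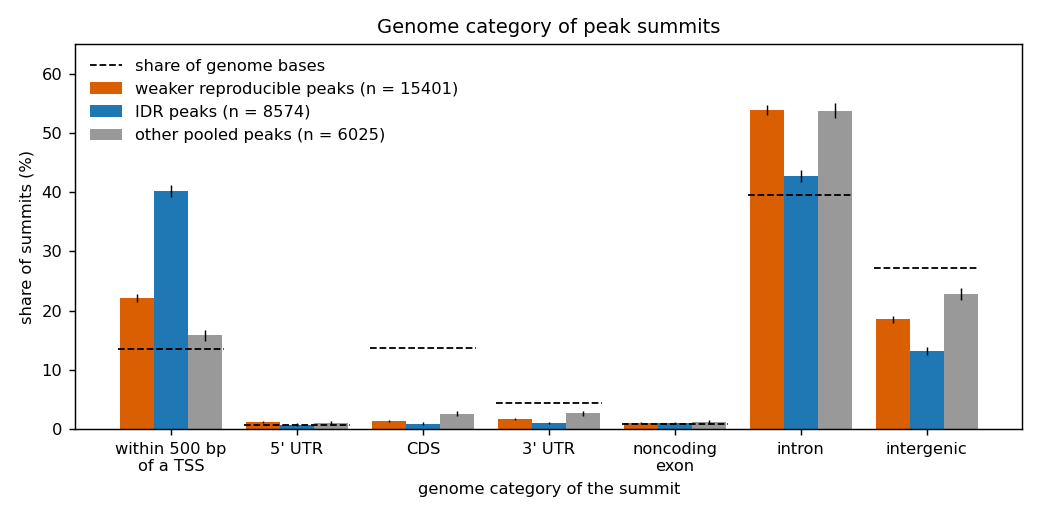
Share of summits (%) in each of 7 genome categories for weaker reproducible peaks, IDR peaks and other pooled peaks, with exact 95% intervals as black lines and the share of genome bases as dashes. The weaker peaks stood at 22.2% in promoters and 53.9% in introns, against 40.2% and 42.8% for IDR peaks.

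Position varied with strength among the members themselves. In the 3081 strongest members 28.5% of summits were at promoters and 50.9% in introns, and in the 3080 weakest 17.2% and 56.3%. The median distance to a TSS was 1616 bp in the strongest of these groups of members and 2394 bp in the weakest. IDR peaks showed a slope of the same direction, with 48.9% at promoters in their strongest 1715 and 32.1% in their weakest 1714. The 1000 members nearest the threshold had 31.2% of summits at promoters (28.3 to 34.2), beside 31.8% (28.9 to 34.8) in the 1000 IDR peaks nearest it. Introns held 47.4% and 48.3% of those summits, and intergenic sequence 17.1% and 16.0%. On each side of the threshold the intervals of these shares overlapped, and no test was made of them.

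**Figure D2:**
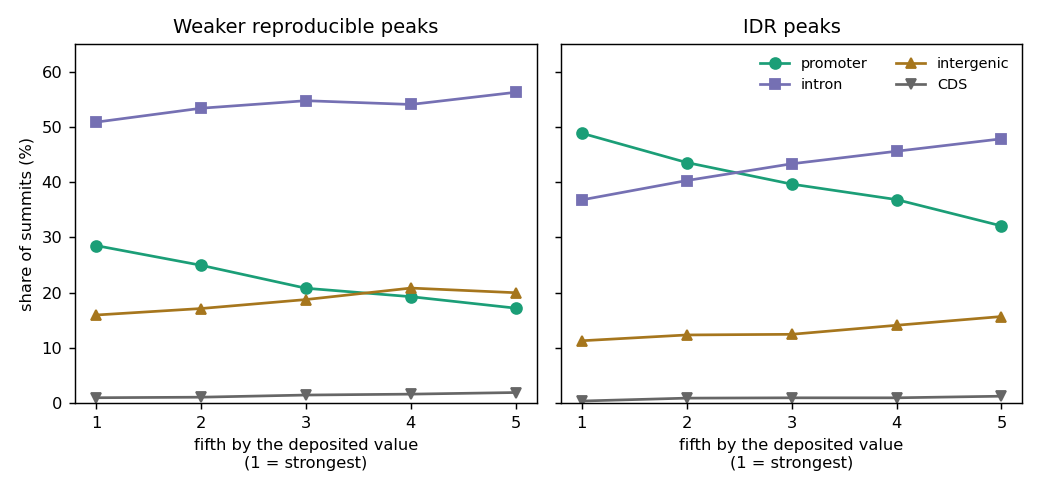
Share of summits (%) in promoters, introns, intergenic and coding sequence over 5 groups of equal size ordered by the deposited value, with weaker reproducible peaks on the left and IDR peaks on the right. From strongest to weakest the promoter share ran from 28.5% down to 17.2% in the weaker peaks, and from 48.9% down to 32.1% in the IDR peaks.

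Against the other pooled peaks, which also missed the IDR set but were not found in both replicates, the members were more often at promoters (22.2% against 15.8%, Fisher's exact test, adjusted exact p = 2.32e-25) and less often intergenic (18.5% against 22.8%, adjusted exact p = 1.14e-11). Intron shares were 53.9% and 53.8% (adjusted exact p = 0.903), and coding sequence held 1.44% against 2.62% (adjusted exact p = 3.14e-08). The other pooled peaks were also lower in rank, with a median of 25351 against 16724 for members. When replicate 5 alone decided what was reproduced, the coding sequence difference turned to 0.409 points (adjusted exact p = 0.127). The promoter excess of 6.33 points fell to 2.7 with stricter overlap by length. It was 2.32 when the pooled summit had to lie inside a peak of each replicate. For members that overlap no IDR peak it was 4.25, and for the stronger 7701 members 9.92. The intergenic difference of -4.24 points was -1.87 with the summit inside and -5.87 for the stronger 7701. All of these passed the threshold, and the cause of the changes was not tested. Comparing peaks of like rank, a step added after the data had been seen, changed the results for all 4 of these categories. At ranks 9001 to 15000 members had fewer promoter summits, 26.5% of 5720 against 36.4% of 280 other pooled peaks (difference -9.98 points, Fisher's exact test, adjusted exact p = 0.00273). The shares were 20.6% and 21.0% at ranks 15001 to 21000 (adjusted exact p = 0.796) and 17.5% and 16.8% at 21001 to 24000 (adjusted exact p = 0.721). At ranks 24001 to 27000 members had more, 17.2% against 13.8% (adjusted exact p = 0.034), as at 27001 to 30000, 17.4% against 11.7% (adjusted exact p = 0.000609). The promoter excess of members over unreproduced peaks was thus seen among the weakest 6000 ranks and was turned round among the strongest, where few peaks missed a replicate. The intergenic difference turned to 2.17 and 2.36 points at ranks 9001 to 15000 and 21001 to 24000 (adjusted exact p = 0.454 and 0.228). It passed at 15001 to 21000 and 27001 to 30000, with -3.73 and -6.01 points (adjusted exact p = 0.034 and 0.00273), and not at 24001 to 27000, with -3.21 points. Introns held more members at 9001 to 15000 and 15001 to 21000, by 7.87 and 4.47 points (adjusted exact p = 0.034 for each). The coding sequence difference passed in none of the 5 ranges (-1.29 to -0.516 points, adjusted exact p = 0.0795 to 0.355).

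Member summits lay at a median of 2019 bp from the nearest TSS, against 904.5 bp for IDR summits and 2645 bp for other pooled peaks. Within 200 bp of a TSS were 13.8% of members against 29.6% of IDR peaks, and beyond 5000 bp 26.7% against 16.9% (Fisher's exact test, adjusted exact p = 6.17e-186 and 9.37e-70). Members were also farther out within a category: 37.5% of their 8295 intron summits lay beyond 5000 bp from any TSS against 30.9% of 3667 IDR intron summits (adjusted exact p = 8.28e-12). Of intergenic summits 32.1% and 25.4% were that far (adjusted exact p = 3.98e-05). Even within 500 bp of a TSS the summits were spread differently. Members were upstream of the TSS or at it in 55.0% of 3413 promoter summits (53.3 to 56.6) against 63.5% of 3447 IDR promoter summits (61.9 to 65.1; Fisher's exact test, adjusted exact p = 4.18e-12), and the median offsets were -21 and -50 bp. A summit within 100 bp of the TSS was found in 40.3% of member promoter summits against 47.7% (adjusted exact p = 2.04e-09), and one 300 to 500 bp downstream in 9.84% against 5.60% (adjusted exact p = 1.24e-10). The other pooled peaks did not differ from members past the threshold in these 3 promoter measures, with 56.0% upstream (adjusted exact p = 0.606), 38.7% within 100 bp (adjusted exact p = 0.444) and 11.1% at 300 to 500 bp downstream (adjusted exact p = 0.374).

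**Figure D3:**
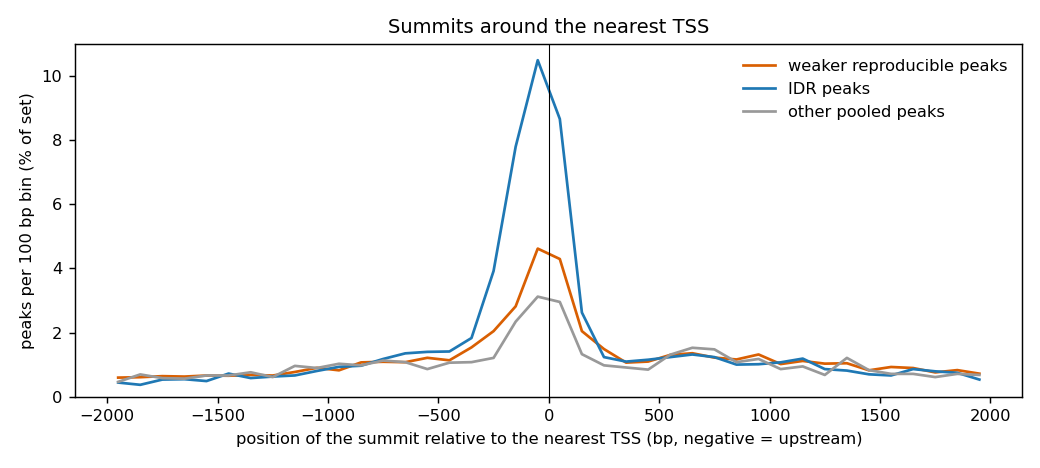
Peaks per 100 bp bin, as a share (%) of each set, against the position of the summit relative to the nearest TSS, with upstream to the left. The weaker peaks reached 4.62% in the bin just upstream of the TSS, against 10.5% for IDR peaks and 3.12% for other pooled peaks.

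Distances from members to IDR peaks are given as description. They were not measured for other pooled peaks or for the genome at large, so nearness cannot be called a trait of members. The interval of 10.3% of them overlapped an IDR peak, 28.6% had an IDR summit within 1000 bp and 73.8% within 5000 bp, and the median distance to the nearest IDR summit was 2031 bp. Overlap with an IDR peak was found for 29 of the 6025 other pooled peaks (0.481%), a contrast to which the rule contributes: 97.5% of IDR peaks overlapped a peak of both replicates, and a pooled peak beside one can overlap the same replicate peaks. By chromosome arm, 2R held 17.2% of members against 20.0% of IDR peaks (Fisher's exact test, adjusted exact p = 9.78e-07) and 3L 23.8% against 22.1% (adjusted exact p = 0.0116). The differences on 2L, 3R, 4 and X did not pass (adjusted exact p = 0.0535 to 0.323). The small chromosome 4 held 88 members and 36 IDR peaks.

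Taken over all categories, the DNA at member summits was poorer in several known promoter words than that at IDR summits. In windows reaching 100 bp to each side of the summit, the DRE (TATCGATA) was present in 0.922% of members against 1.89% of IDR peaks (odds ratio 0.483, Fisher's exact test, adjusted exact p = 6.76e-09). The core of the promoter-binding protein M1BP (GGTCACAC) was in 0.916% against 1.55% (adjusted exact p = 8.81e-05). The GAGA repeat (GAGAGAG), bound by GAGA factor, was in 4.86% against 6.92% (adjusted exact p = 2.02e-09). The E-box CAGCTG was in 9.04% against 10.6% (adjusted exact p = 0.000253) and the CA repeat (CACACACA) in 6.42% against 8.39% (adjusted exact p = 1.81e-07). Members were richer in the A tract, with AAAAAAAA in 9.03% against 6.86% (adjusted exact p = 4.14e-08), in the homeobox core TAATTA, 11.8% against 10.0% (adjusted exact p = 9.01e-05), and in the PHO core GCCATNTT, 4.04% against 3.24% (adjusted exact p = 0.00649). In windows reaching only 50 bp to each side the differences in the M1BP core, TAATTA and GCCATNTT no longer passed (adjusted exact p = 0.133, 0.305 and 0.133). That in GCCATNTT also failed with 200 bp to each side (adjusted exact p = 0.053), and that in TAATTA for the stronger 7701 members (adjusted exact p = 0.0716). The other 10 of the 18 consensus sequences gave no difference past the threshold, among them the initiator core TCAGTT (13.6% against 14.6%, adjusted exact p = 0.054), the GATA site AGATAAG (3.23% against 2.95%) and the early-embryo Zelda site CAGGTAG (0.922% against 1.05%). Median GC content was 42.8% in members, 44.3% in IDR peaks and 41.3% in other pooled peaks, and its part in these differences was not tested.

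Since the sets differed in category, the same words were compared within promoters and within introns, a step added after the data had been seen. Within promoters the DRE was in 2.87% of member summits against 4.06% (Fisher's exact test, adjusted exact p = 0.0492) and CAGCTG in 11.0% against 13.6% (adjusted exact p = 0.0147). The A tract was in 8.17% against 6.21% (adjusted exact p = 0.0155). The GAGA repeat, at 8.35% against 8.59% (adjusted exact p = 0.805), and the M1BP core, at 2.78% against 3.34% (adjusted exact p = 0.517), did not pass within promoters. Nor did the CA repeat (7.30% against 8.09%, adjusted exact p = 0.517), TAATTA (10.6% against 9.02%, adjusted exact p = 0.141) and GCCATNTT (3.81% against 3.42%, adjusted exact p = 0.560). Within introns the GAGA repeat was in 4.21% against 6.33% (adjusted exact p = 1.07e-05) and the CA repeat in 6.50% against 9.27% (adjusted exact p = 2.65e-06). The A tract (10.1% against 7.5%, adjusted exact p = 3.25e-05), TAATTA (12.4% against 10.4%, adjusted exact p = 0.00672) and GCCATNTT (4.17% against 3.0%, adjusted exact p = 0.00672) were more common in member introns. The DRE (0.289% against 0.300%), the M1BP core (0.386% against 0.382%) and CAGCTG (8.68% against 8.45%) did not pass within introns, where most members lay. As a scale for these shares, windows of the same length centred on the 19253 TSS positions of protein-coding genes held the DRE in 6.45%, the M1BP core in 5.68%, the GAGA repeat in 4.69%, CAGCTG in 13.4%, the CA repeat in 4.0%, the A tract in 10.5%, TAATTA in 9.39%, GCCATNTT in 4.22%, the initiator core in 21.9%, AGATAAG in 2.66% and CAGGTAG in 1.08%. In windows 600 bp to each side of member summits, the GAGA repeat was in 3.11%, the CA repeat in 4.83%, the A tract in 13.7% and TAATTA in 14.5%. Beside IDR summits these shares were 4.09%, 5.40%, 12.7% and 13.8%. The A tract and TAATTA were thus less common at the summits of both sets than in their own flanks. GCCATNTT was in 3.83% of the member flanks and 4.02% of the IDR flanks.

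Against the other pooled peaks the members were richer in the GAGA repeat (4.86% against 3.54%, Fisher's exact test, adjusted exact p = 9.01e-05), CAGCTG (9.04% against 7.82%, adjusted exact p = 0.0128), the CA repeat (6.42% against 5.36%, adjusted exact p = 0.0116), the M1BP core (0.916% against 0.581%, adjusted exact p = 0.0347) and the Grainyhead site AACCGGTT (0.695% against 0.398%, adjusted exact p = 0.0291), which is in 0.426% of the TSS windows. They were poorer in TAATTA (11.8% against 14.0%, adjusted exact p = 8.81e-05) and in the A tract (9.03% against 10.2%, adjusted exact p = 0.0291). The direction for CAGCTG, the CA repeat, TAATTA and the A tract turned round when only replicate 7 decided what was reproduced, with differences of -0.471, -0.153, 0.820 and 2.74 points. The GAGA repeat kept its sign there but did not pass (adjusted exact p = 0.0665). The M1BP core and the Grainyhead site passed with neither replicate alone: adjusted exact p was 0.235 and 0.298 with replicate 7, and 0.0512 and 0.14 with replicate 5. Neither passed for members that overlap no IDR peak (adjusted exact p = 0.123 and 0.0519), nor did the A tract (adjusted exact p = 0.0843). In windows reaching 50 bp to each side TAATTA and the A tract passed and the other 5 did not, and with 200 bp to each side CAGCTG and the A tract did not pass (adjusted exact p = 0.0695 and 0.149).

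At 1404 of 13945 protein-coding genes (10.1%) the promoter was reached only by weaker peaks, that is, an annotated TSS had a member summit but no IDR summit inside 500 bp. An IDR summit reached 2975 genes (21.3%), and 992 of these had a member there too. Another 481 genes were reached only by other pooled peaks and 9085 by none. Among the 4219 genes that are not protein-coding, 477 (11.3%) were reached only by weaker peaks and 513 (12.2%) by an IDR peak. The class of a gene follows from the rule. It is not independent of the number of TSSs, since an IDR summit at any of them excludes the gene from the weaker-only class. Genes reached only by weaker peaks less often had more than 1 TSS than genes with an IDR promoter peak, 36.5% against 50.9% (Fisher's exact test, adjusted exact p = 1.10e-18). They less often had a TSS of another gene on the opposite strand within 1000 bp, 37.7% against 51.9% (adjusted exact p = 1.97e-18), and were less often longer than 10000 bp, 25.8% against 29.8% (adjusted exact p = 0.00641). Genes with no pooled summit at a TSS had more than 1 TSS in 16.7% and an opposite TSS in 38.8%. A gene with more TSS positions has more places at which an IDR summit or an opposite TSS can count. The part of this in these differences was not tested.

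Some of these 1404 genes had an IDR peak not far away. An IDR summit lay more than 500 and up to 1000 bp from a TSS for 241 of them (17.2%), and inside the gene body for 344 (24.5%). For 501 genes (35.7%) the nearest IDR summit was over 5000 bp from every TSS, and for 307 (21.9%) over 10000 bp. The 1404 genes drew on 1285 distinct peaks. For 270 of the genes the strongest promoter member was also that of another protein-coding gene, which need not be among the 1404.

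The 25 genes whose promoter member had the highest value covered metabolism, translation, transport and development. Their values, 168.5 to 169.3, were chosen by the rule for naming and lie just under the IDR threshold. Drak, a protein kinase gene, headed them at 169.3 with its summit 35 bp downstream of the TSS, at rank 9077 in replicate 5 and 8912 in replicate 7. m-cup followed with 169.3, at ranks 7511 and 10322. SdhD, a membrane subunit of succinate dehydrogenase, had 169.2 with the summit 64 bp upstream, at ranks 9362 and 9122. For these genes the replicates gave ranks of the same order.

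Some members stood much higher in 1 replicate. The peak shared by CG14683, CG46459 and pug, a folate enzyme gene, had 169.1 at rank 17236 in replicate 5 and 6351 in replicate 7, and its summit was 23 bp upstream of pug. That of heph, the fly polypyrimidine tract-binding protein, had 168.7 at ranks 15525 and 6021, and MICAL-like had 168.6 at ranks 13821 and 6332. In these 3 replicate 7 placed the peak higher. Efr, a sugar nucleotide transporter gene, had 168.9 with the order turned round, rank 6603 in replicate 5 and 11947 in replicate 7.

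Developmental regulators were among the 25. The GATA factor gene pnr, needed in the dorsal embryo and heart, had 168.7 with the summit 76 bp downstream of a TSS, at ranks 11102 and 8352, and its nearest IDR summit was 14341 bp away. tsh, a zinc finger gene of trunk identity, had 168.5 at ranks 7886 and 5972 with the summit 269 bp upstream. zfh2, a zinc finger homeobox gene on chromosome 4, had 168.8 at ranks 9222 and 7892, and an IDR summit stood 1102 bp from its TSS. Smr, a corepressor that works with the ecdysone receptor, had 169.0 at ranks 11508 and 9081, with 12 member and 7 IDR summits in its body. By the rule for naming, these promoters had no IDR summit within 500 bp, although the gene bodies of zfh2, Smr and tsh held 2, 7 and 1 IDR summits.

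The rest were CG11426, CG34015 and eIF4H1 (1 shared peak, eIF4H1 being a translation initiation factor), CG13722, CG31674, CG9297, the Golgi gene Gmap, the FK506-binding protein gene Fkbp59, CG46309 and the phosphatase PRL-1 (1 shared peak), the acyltransferase Agpat1, and CG6055. Over all 25 genes the nearest IDR summit to a TSS was between 627 bp (MICAL-like) and 43636 bp (Efr) away. The gene of the tagged protein itself, CG12769 on 2R, had an IDR peak and no member at its promoter, and 5 member and 12 IDR summits in its body.

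Among 26 gene lists, described by counts without a test, the share of promoters reached only by weaker peaks is to be read against the 10.1% of all protein-coding genes. A gene with an IDR summit at its promoter cannot be in this share. Lists with many such genes, which were 21.3% of all protein-coding genes, thus had fewer genes left that could be. The 10.1% is not adjusted for this. A summit counted for a listed gene can also lie within 500 bp of a TSS of another gene. Among the genes named below this held for Nrx-IV (eIF3l), rtv (Dlic), Med (CycG), Hsc70-1 (CG13738), RpS13 (CSN8) and mRpL17 (Tudor-SN), among others. In the segmentation and homeotic list, the transcription factors and signals that divide the embryo and give segments their identity, 8 of 30 genes (26.7%, 95% exact interval 12.3 to 45.9) were reached only by weaker peaks and 6 by IDR peaks. The selector gene inv had 152.9, at ranks 12344 in replicate 5 and 9209 in replicate 7. The gap gene Kr had 126.8 (ranks 12830 and 11533), the homeotic gene abd-A had 125.5 (9904 and 13287), and the pair-rule gene slp2 had 115.7 (21677 and 10188). The 8 genes had 8 separate peaks with values of 61.2 to 152.9, against 169.7 for the weakest IDR peak. The lowest value is that of the kni peak, which is counted in the nuclear receptor list as well.

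Muscle, trachea, signalling and neural lists had shares above the background whose intervals held it. In the sarcomere list 6 of 32 genes (18.8%, 7.21 to 36.4) were reached only by weaker peaks and 21 (65.6%) by IDR peaks. Tm2, a tropomyosin gene, had 165.1 and Act87E, an actin gene, 142.6. Mlp60A, a muscle LIM protein gene, had 137.9, and up, the troponin T gene, had 136.0. So in this list weaker peaks added 6 genes to a set already mostly reached by IDR peaks.

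The embryonic signalling list had 7 of 41 (17.1%, 7.15 to 32.1) beside 23 with an IDR peak. They were led by pan (153.5), the Wnt pathway transcription factor, and sty (141.7), an inhibitor of receptor tyrosine kinase signalling. Mad (133.3) and Med (130.7), which carry the BMP signal to the nucleus, followed. The synapse and ion channel list had 7 of 38 (18.4%, 7.74 to 34.3) and 9 with an IDR peak, led by the acetylcholinesterase gene Ace (163.4), the glutamate receptor gene GluRIIC (159.7), the transporter gene Vmat (152.1) and the syntaxin gene Syx1A (136.0). Neural fate genes had 5 of 30 (16.7%, 5.64 to 34.7), with dac (164.9), esg (164.8), toy (96.5) and Sox21b (70.8) first, beside 7 with an IDR peak. In the glia and blood-brain barrier list, 3 of 18 (16.7%, 3.58 to 41.4) were reached only by weaker peaks: wrapper (129.9) and the septate junction genes Nrx-IV (81.3) and kune (79.2). The trachea list had 4 of 17 (23.5%, 6.81 to 49.9), namely sr (129.3), which is better known from tendon cells, Osi7 (108.3), rtv (73.9), a gene of chitin assembly, and Osi6 (41.6).

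Cuticle protein genes, which build the larval and adult exoskeleton, had 17 of 121 (14.0%, 8.40 to 21.5) reached only by weaker peaks and 16 (13.2%) by IDR peaks. Among the stronger 7701 members alone 9 were so reached. Their 17 peaks were separate, and 11 of the genes lie on 3L. Edg78E had 164.7, Cpr65Av 160.5, Lcp65Ae 146.3 and TwdlL 136.3. Nuclear receptor and ecdysone genes had 3 of 26, Hr78 (132.2), knrl (106.1) and kni (61.2), beside 14 with an IDR peak. Heat shock genes also had 3 of 26, Hsp110 (138.0), Hsp23 (108.2) and Hsc70-1 (92.8), beside 11.

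Lists of housekeeping complexes, and of clock and chromatin regulators, were not above the background, and of these the interval of the proteasome list alone lay below it. Cytoplasmic ribosomal protein genes had 9 of 94 (9.57%, 4.47 to 17.4), with RpS13 (163.4) and RpL6 (163.2) highest. Another 51 (54.3%) had an IDR peak and so could not count, which limits the comparison with the background. Mitochondrial ribosomal protein genes had 5 of 75 (6.67%), led by mRpL17 (167.4), and 25 with an IDR peak. Oxidative phosphorylation genes had 8 of 92 (8.70%), SdhD first and ND-B22 (157.2) next, and 20 with an IDR peak. For the proteasome the count was 0 of 48 (0 to 7.40) and 6 with an IDR peak, and for circadian clock genes 0 of 15 (0 to 21.8) and 6. The proteasome share with an IDR peak, 12.5% (4.73 to 25.2), was also under the 21.3% of all protein-coding genes, though its interval held that value. No pooled peak reached 41 of the 48. Polycomb and trithorax group genes had 1 of 29, osa (137.4), and 11 with an IDR peak.

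Families mostly used outside the embryo, in sense organs, gut, fat body or testis and accessory gland, had weaker-only shares below the background, but the interval excluded it for chemosensory receptors alone. Chemosensory receptors had 1 of 180 (0.556%, 0.0141 to 3.06), Ir67c at 74.1, and 4 with an IDR peak. Seminal fluid protein genes had 1 of 46 (2.17%, 0.055 to 11.5), Sfp79B (112.0), and 1 with an IDR peak. Odorant binding proteins had 4 of 51 (7.84%, 2.18 to 18.9), with Obp99d (127.3) first, and cytochromes P450 had 6 of 85 (7.06%, 2.63 to 14.7), with Cyp6v1 (113.9) first. In the antimicrobial peptide list 2 of 22 (9.09%, 1.12 to 29.2), Drsl5 (154.2) and AttD (111.5), were reached only by weaker peaks and none by IDR peaks, and the AttD summit was also within 500 bp of threonine tRNA genes. In the serine protease list 2 of 33 (6.06%, 0.743 to 20.2), Jon65Aiii (83.3) and Jon65Aiv (76.5), were reached only by weaker peaks and 0 by IDR peaks.

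For RNA genes the annotated 5' end stands for the TSS, and the background is 11.3%. Transfer RNA genes had 81 of 295 (27.5%, 22.4 to 32.9) reached only by weaker peaks, 62 (21.0%) by IDR peaks, 34 only by other pooled peaks and 118 by none. Of all 4219 genes that are not protein-coding, 12.2% were reached by IDR peaks and 156 (3.70%) only by other pooled peaks. So the tRNA list stood above the background for every kind of peak, and not for members alone. Among the stronger 7701 members alone the count was 47. Since tRNA genes lie in clusters, the 81 genes shared 57 peaks, and 1 peak reached up to 4 of them. Their peaks had values of 43.4 to 167.5 with a median of 92.5. The highest were at tRNA:Asp-GTC-1-6 (167.5) and at a cluster of tRNA:Ile-AAT-1-4, tRNA:Ile-AAT-1-5 and tRNA:Leu-CAA-2-1 (167.0). Many tRNA genes are near-identical copies, and how the authors treated reads that match several of them is not stated in the notes or labels used here, so the copy that a peak belongs to is uncertain. Small nucleolar RNA genes had 18 of 274 (6.57%), microRNA genes 19 of 260 (7.31%) and small nuclear RNA genes 3 of 32, with 31, 25 and 6 reached by IDR peaks.

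**Figure D4:**
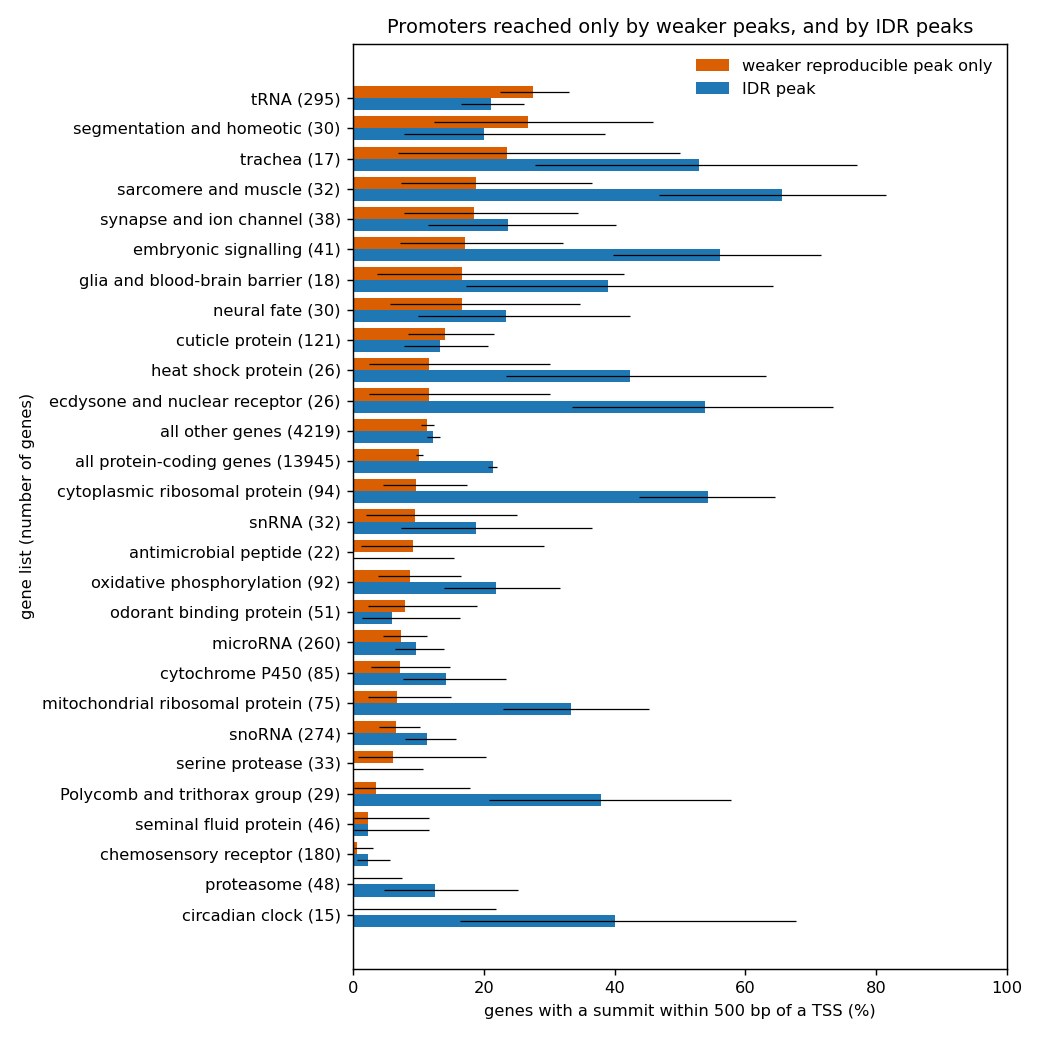
Share (%) of each gene list with a weaker reproducible summit and no IDR summit within 500 bp of a TSS, above the share with an IDR summit there, with exact 95% intervals and the number of genes in brackets. The tRNA and the segmentation and homeotic lists had the highest weaker-only shares (27.5% and 26.7%), beside 11.3% of all other genes and 10.1% of all protein-coding genes.

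The gene bodies with the most members were those of long genes, as a count of summits favours. A member summit lay in the body of 2826 of 13945 protein-coding genes (20.3%) and an IDR summit in 2483 (17.8%). A body with members and no IDR summit was found for 1065 genes (7.64%), and 297 genes held 10 or more members. First was kirre, a myoblast fusion receptor gene of 394 kb, with 77 member and 20 IDR summits. hth, whose product is a homeodomain partner of the homeotic proteins, held 58 and 14, and bun, a TSC22 family gene, held 55 and 23. Per 100 kb these are 19.5, 43.9 and 60.4 member summits, so bun was the densest of the 10 listed and kirre the sparsest.

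CG46467 and Glut4EF, which overlap on 3R and so share their peaks, held 49 member and 19 IDR summits each. Svil, the supervillin gene, held 47 and 15. Eip75B, an ecdysone-induced nuclear receptor gene, held 45 and 33, and klar held 43 and 15. The Wnt receptor genes fz2 and fz held 43 and 13, and 41 and 7. Among these 10 genes, fz held the fewest IDR summits and Eip75B the most.

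For its length, a gene body held the most members at over 20000 to 50000 bp, 16.9 summits per 100 kb against 8.06 IDR summits, and fewer in the 307 genes longer than that, 10.9 against 4.60. The longer the gene, the more member summits it held for each IDR summit above 2 kb. The ratio was 1.22 in genes of over 2000 to 5000 bp, 1.39 up to 10000 bp, 1.66 up to 20000 bp, 2.10 up to 50000 bp and 2.38 in genes longer than that, and it was 1.56 in genes of up to 2000 bp. Longer genes hold more intron sequence far from a TSS, and its part in this ratio was not tested.

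**Figure D5:**
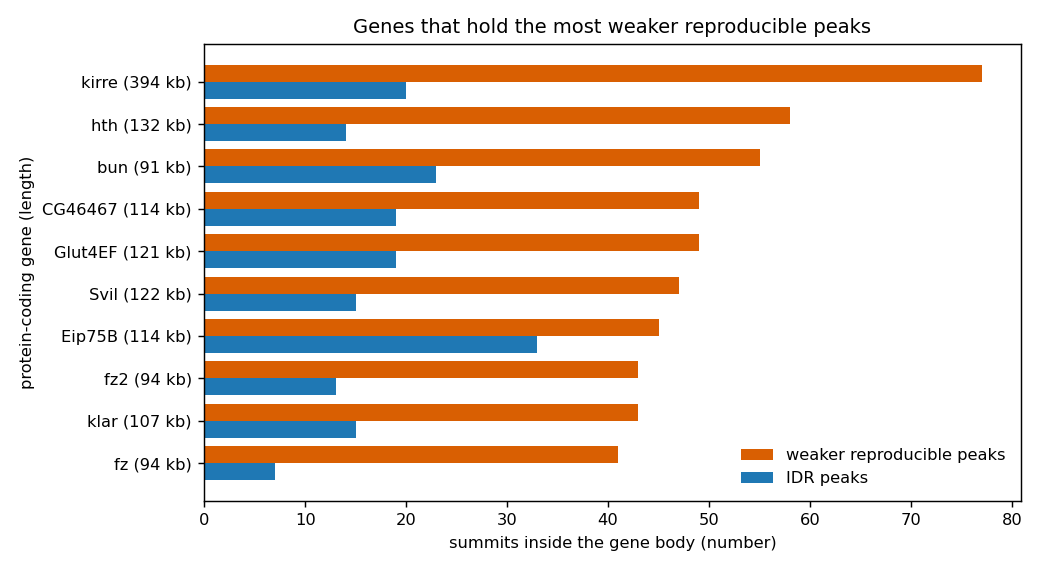
Number of summits inside the gene body for the 10 protein-coding genes that hold the most weaker reproducible peaks, weaker peaks above IDR peaks, with gene length in kb. Weaker summits ran from 77 in kirre to 41 in fz, and IDR summits from 33 in Eip75B to 7 in fz.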

How the data were processed

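Peaks of anti-GFP ChIP-seq from 2 biological replicates (5 and 7) of 1 group were used. Per the notes deposited with them, the narrowPeak lists on dm6 of each replicate and of the pooled replicates were made from their alignments and 1 further file, and the IDR list from those 3. Which peak caller, filters and IDR cutoff were used was not stated in them. Each peak's deposited signal value, on an unstated scale, ranked peaks within the pooled list. The deposited −log10 q-value was not used for any test. The lists hold no read counts, so depth is unknown.

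Coordinates are 1-based. Genes (18164, of which 13945 protein-coding) and 23581 TSS positions came from Ensembl release 115. Shares were compared with two-sided Fisher's exact tests (scipy 1.17.1, pandas 2.3.3), Benjamini-Hochberg adjusted within each family at 0.05, after the functions had been tested on simulated data. Exact (Clopper-Pearson) 95% intervals cover counting error only. Members, gene lists and consensus sequences were chosen with earlier results of these data known. Named are the 25 genes with the highest promoter member, the 10 with most members in the body, up to 4 per list, the 5 peaks on each side of the IDR threshold, and CG12769. Some list families are matched by symbol, and 7 list names matched no gene. The rank-matched comparison, distances within introns and intergenic sequence, sequence within categories, the 1000 peaks on each side of the threshold and 2 of the 3 promoter offset measures were added after the data had been seen. Alternatives were stricter overlap, the stronger 7701 members, members clear of IDR peaks, 1 replicate only, other TSS distances, protein-coding TSSs and other windows.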

Additional observations from a re-analysis of the deposited data

How the results depend on the processing

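Of 509 recomputed values, 417 kept their direction and their side of the threshold (or, for counts, stayed within 1.5 times). Another 45 changed sign, 35 of them past the threshold in neither setting. Comparisons of genome category and TSS distance with IDR peaks kept both except coding sequence, at 0.234 points for the stronger 7701 members, and noncoding exons. The noncoding exon difference, 0.036 in the main setting, stood at -0.0206 (stricter overlap), -0.0615 (stronger 7701), -0.144 (TSS distance 200 bp) and -0.354 (protein-coding TSSs). The count of 1404 protein-coding genes ran from 995 (stronger 7701 members) to 1688 (replicate 7 alone).

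Differences from other pooled peaks were less stable. At pooled ranks 9001 to 15000, 15001 to 21000 and 21001 to 24000 the promoter difference was -9.98, -0.383 and 0.682 points, against 6.33 over all. The intergenic difference was 2.17 points at ranks 9001 to 15000, 2.36 at 21001 to 24000 and -3.21 at 24001 to 27000. The intron difference was 7.87, 4.47 and -1.14 points in the first 3 ranges, against 0.101 over all, and -1.27 for the stronger 7701 members and -0.82 with a TSS distance of 1000 bp. The coding sequence difference no longer passed in any range, with -1.15, -0.516, -1.29, -0.685 and -1.02 points. With a TSS distance of 200 bp the 5' UTR difference was 0.743 points (0.0928 in the main setting), and it was -0.104 and -0.0847 with stricter overlap by length or by summit. That of noncoding exons (-0.114) was 0.241 with a TSS distance of 200 bp and 0.114 with protein-coding TSSs. The upstream share of promoter summits (-1.01) differed by 0.211 and 0.382 with stricter overlap by length or by summit, 0.556 for the stronger 7701 members and 0.957 with a TSS distance of 1000 bp.

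Leaving out 1 replicate from the rule, the coding sequence difference from other pooled peaks ran from -2.58 to 0.409 points and that of noncoding exons from -0.509 to 0.0704, that of introns from -0.808 to 1.39 and the upstream share from -2.35 to 2.54. The arms past the threshold were 2 to 4, and the consensus sequences past it against other pooled peaks 3 to 6. Differences from other pooled peaks then ran from -3.77 to 2.74 points for the A tract, -0.153 to 1.66 for the CA repeat, -0.471 to 2.13 for CAGCTG, -3.81 to 0.820 for TAATTA and -3.44 to 2.63 for the TATA box (TATAAAA, in 13.1% of TSS windows), the sign opposite to the main value being in each case that without replicate 5. They ran from -0.214 to 0.482 for the DRE and -0.426 to 0.114 for the Mef2 core (CTATTTAT, in 2.03% of TSS windows). Differences from IDR peaks ran from -0.035 to -0.00489 for CACGTG (2.8%), -0.057 to 0.00397 for the AP-1 site TGANTCA (3.79%), -0.0799 to 0.0107 for the Mef2 core and -0.0371 to 0.912 for the TATA box. With windows reaching 50 bp to each side, 5 consensus sequences passed against IDR peaks (8 in the main setting) and 2 against other pooled peaks (7), and 4 passed against other pooled peaks for members that overlap no IDR peak. In those short windows differences from IDR peaks turned to 0.0242 for the Grainyhead site, 0.0229 for the Mef2 core and -0.214 for the TATA box, and that from other pooled peaks to -0.0823 for the FTZ-F1 site (CAAGGTCA, 0.332%). With 200 bp to each side differences from IDR peaks turned to -0.207 for CACGTG and -0.0432 for AGATAAG. For members that overlap no IDR peak, CACGTG stood at -0.0326 and the Mef2 core at 0.00639 points from IDR peaks, and for the stronger 7701 members the FTZ-F1 and Grainyhead sites stood at 0.074 and 0.0807 points from them. The cause of these changes was not tested.

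No paired analysis was possible because the study had 1 group. Peaks were limited to 30000 a list, which sets where weak peaks end, and without read counts no peak carries an error of its own.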
